A study of Homo sapiens with 6 samples.

Results

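The 10 genes described here are inhibitors that shut NF-κB signalling off again and survival genes that NF-κB switches on: NFKBIA, NFKBIB, NFKBIE, NFKBIZ, TNFAIP3, TNIP1, TRAF1, BIRC2, BIRC3 and CYLD. They were taken by gene symbol from a table of read counts with 22354 loci. All 10 are in the table, and all 10 are among the 14860 loci that passed the filter on low counts and were tested.

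RNA was sequenced from 6 libraries of HTori-3.1, an immortalized human thyroid cell line, to compare gene expression with and without the clock gene BMAL1. The 3 control libraries carry the genotype label wild type, and the other 3, titled with an sgRNA against the gene, are labelled BMAL1 knockout. The cells of every library were given etoposide, which blocks topoisomerase II and breaks DNA, at 2 μM. The treatment field of the labels gives 12 h of exposure and the treatment protocol gives 24 h. As a model, the knockout is limited by how it was made: the growth protocol describes a CRISPR-Cas9 virus, puromycin and the picking of single clones, without the number of clones behind the 3 libraries. Nothing in the labels says that the replicates are separate cultures, so every p-value given here measures only the spread between these libraries.

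NF-κB dimers are held in the cytoplasm by IκB proteins until a kinase complex below the TNF, interleukin or DNA damage signal marks the inhibitor for destruction. The freed dimers then switch on genes for cytokines and for cell survival, and also the genes of their own inhibitors, among them NFKBIA and TNFAIP3, which closes a feedback loop. In epithelial cells, the thyroid follicle included, the pathway answers inflammatory signals and DNA damage.

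The RNA of BMAL1 itself was higher, not lower, in the libraries labelled knockout. BMAL1 (ENSG00000133794.20, hg38 chr11:13276652-13387266), the transcription factor of the circadian clock that the knockout targets, was measured at 11.3, 12.2 and 14.6 CPM (counts relative to a library's total, normalized with TMM factors) in the control libraries and at 17.9, 19.8 and 19.4 CPM in those labelled knockout. The knockout-labelled libraries are the higher ones, with no overlap between the groups. The mean was 12.7 ± 1.70 CPM (SD, n = 3) in control libraries against 19 ± 0.987 CPM (SD, n = 3), and the log2 fold change was 0.58 (standard error 0.114, edgeR adjusted p = 0.0237). The adjusted p was 0.05 or more in 4 of the 6 fits that each left a library out: 0.105 without control replicate 1, 0.129 without control replicate 2, 0.0817 without knockout replicate 2 and 0.0598 without knockout replicate 3. It ranged from 0.00163 to 0.129 over all 15 alternatives. A noncoding gene of the opposite strand, ENSG00000290083, shares 421 exon bases with BMAL1 and is not in the table, and the strand used for counting is not stated. Counts per gene do not show the edited site, so neither an edit nor its absence can be read from them. The study gives a western blot of BMAL1 protein as its check of knockout efficiency in the line. It reports NFKBIA as lower in its knockout group, and credits this to cell line experiments and transcriptome sequencing. Increased CDKN1A, a senescence marker, and more senescence in the knockout line are also reported. The blot is not among the deposited files. In the libraries here NFKBIA was also lower by label, with a log2 fold change of -0.30, which did not pass the test. Among known targets of BMAL1, picked here after their values were seen, NR1D1 had a log2 fold change of -1.25 (edgeR adjusted p = 0.00121) and NR1D2 of -0.78 (edgeR adjusted p = 0.00277), both lower in the knockout-labelled libraries. For PER1 it was -0.22 (edgeR adjusted p = 0.513) and for DBP 0.01 (edgeR adjusted p = 0.989), which did not pass. Whether group labels were exchanged in the deposited table was not tested, and an exchange would turn every sign given here. For this reason the groups are named by their labels throughout.

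Total counts were 26893063, 27029060 and 28513703 in control libraries and 43148059, 29860233 and 43563391 in knockout-labelled libraries. Knockout replicates 1 and 3 are thus deeper than the other 4 libraries. Between a pair of libraries of the same group, squared differences were averaged over the tested loci with enough counts in that pair. They ran from 5.36 to 46.5 times what counting alone would give. Single genes can vary less than this average. The measure also grows with depth, so pairs with deeper libraries tend to read higher. Knockout replicate 1 stands apart: its values were 31.6 against knockout replicate 2 and 46.5 against knockout replicate 3, while those replicates gave 7.24 against each other. Without knockout replicate 1, the log2 fold change was -0.57 for TNFAIP3 (edgeR adjusted p = 0.00429), -0.61 for TRAF1 (0.0131), -0.60 for BIRC3 (0.00374) and -0.24 for NFKBIA (0.130). TNFAIP3, TRAF1 and BIRC3 pass the test with and without this library, and NFKBIA in neither case.

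Markers of the thyroid follicular cell were present only in part. PAX8, a transcription factor of the follicular lineage, had the highest CPM of these, with a mean of 132 CPM in control and 111 CPM in knockout-labelled libraries. FOXE1 averaged 47.5 and 40.4 CPM, and HHEX 9.89 and 10.4 CPM. Of NKX2-1 there were 0 counts in all 6 libraries. TG, TSHR and SLC5A5, which encode thyroglobulin, the TSH receptor and the iodide transporter, had means no higher than 0.266 CPM. The epithelial keratin KRT8 averaged 1393 and 1168 CPM, while EPCAM and CDH1 lay under 1 CPM.

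Promoter sequence of 9 of the 10 genes is in the RefSeq table of start sites (GRCh38.p14), as 17 windows of 250 bases before a start. NFKBIE was not matched. The κB consensus, a decamer bound by NF-κB dimers and searched on both strands, has a match in 8 of the 17 windows and in 7 of the 9 genes. Among all genes of the table, 6.28% have a match in some window, and 5.21% of all 35116 windows hold it. The E-box CACGTG, the letters that the BMAL1 and CLOCK dimer is known to bind, was found in the window of TNFAIP3 and in no other of the 9 genes, against 7.73% of all genes and 6.34% of all windows. The decamer and CACGTG share no base in these windows. The stretches below come from 3 genes that are known NF-κB targets, with the κB matches and the E-box in capitals, written 5′ to 3′ on the strand of the gene. They show how the matches are arranged near the start of the best known feedback inhibitor and of a pair of genes that passed the test described further on.
NFKBIA: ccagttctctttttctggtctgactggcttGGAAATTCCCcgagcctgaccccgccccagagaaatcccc
TNFAIP3: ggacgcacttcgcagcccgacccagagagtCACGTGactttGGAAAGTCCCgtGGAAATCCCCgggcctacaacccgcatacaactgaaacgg
BIRC3: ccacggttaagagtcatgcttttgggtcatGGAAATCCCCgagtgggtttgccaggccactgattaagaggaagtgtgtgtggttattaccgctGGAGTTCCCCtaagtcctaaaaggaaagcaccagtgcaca

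The NFKBIA stretch is chr14:35404791-35404860 on the reverse strand, and GENCODE v44 places no gene on it. The TNFAIP3 stretch is chr6:137867151-137867243 on the forward strand. Its last bases lie inside TNFAIP3 by GENCODE, and WAKMAR2, a noncoding gene of the opposite strand, covers it. The BIRC3 stretch is chr11:102317255-102317388 on the forward strand, within a noncoding gene of the opposite strand (ENSG00000288528). The first base of the NFKBIA match lies 81 bases before the start, those of TNFAIP3 67 and 55, and those of BIRC3 199 and 135. The E-box of TNFAIP3 begins 78 bases before the start. No window of TRAF1, with 3 starts, or of BIRC2, with 2 starts, holds a match. A match describes letters only, and no binding was measured in these libraries.

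**Figure D1:**
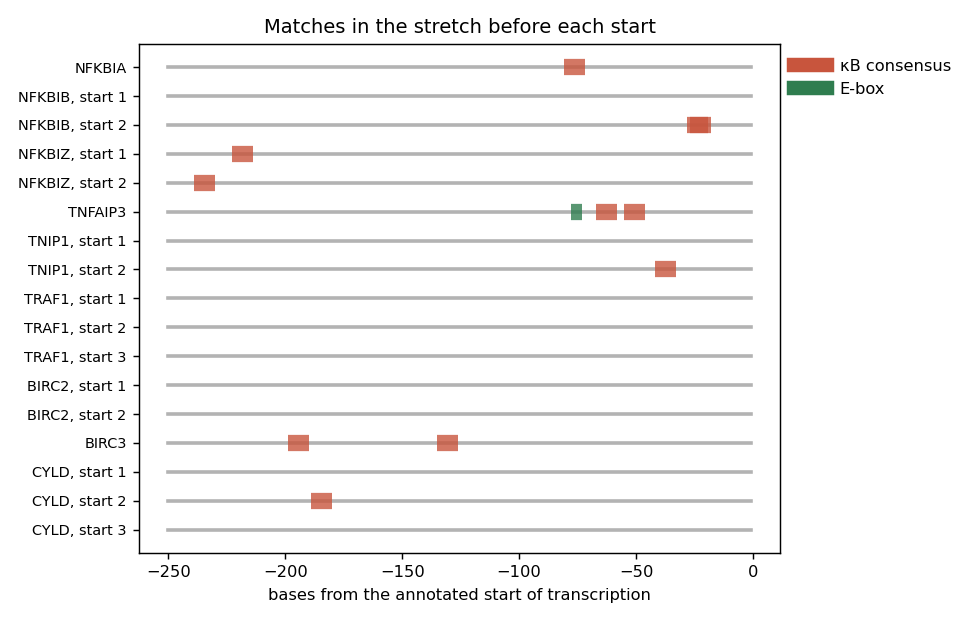
Position of κB consensus matches and of CACGTG in the 250 bases before each RefSeq start of the 9 genes matched; the horizontal axis is the distance to the start in bases, and each line is a start. TNFAIP3 has a pair of κB matches and the E-box close to its start, and the windows of TRAF1 and BIRC2 hold none.

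In the knockout-labelled libraries, TNFAIP3, TRAF1 and BIRC3 were lower by 30.5% to 35.6%, and the other 7 genes did not pass the test. With edgeR, 3 of the 10 passed the threshold, an adjusted p under 0.05, as lower, beside 1.36% of all 14860 loci, and 0 were higher, beside 1.01%. The 10 genes were chosen with earlier results of these data known, so this contrast is a description and not an independent test. Counted by unadjusted p (under 0.05), 6 of the 10 were lower, beside 7.76% of all loci, and 0 were higher, beside 9.10%. DESeq2 and limma-voom also called 3 lower and 0 higher, where they called 1.95% and 1.31% of all loci lower. The count was 1 lower without control replicate 1 and 1 without control replicate 2, where 0.496% and 0.43% of all loci were lower. It was 5 with the trend over GC content removed, where 5.83% of all loci were lower. The group ranges did not overlap for 5 genes, all lower in knockout-labelled libraries, where 11.5% of all loci lie lower without overlap and 11.8% higher. The log2 fold changes ran from -0.64 to -0.01 with a median of -0.23, beside a median of 0.01 over all loci. All 10 were below 0, as were 47.7% of all loci, but the sign turned for NFKBIB, NFKBIE and BIRC2 in some of the alternatives. Of all loci, 202 were lower and 150 higher, and with scaling by library size alone 155 were lower and 175 higher. In bulk RNA, fewer cells that express a gene and less RNA per cell cannot be told apart.

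**Figure D2:**
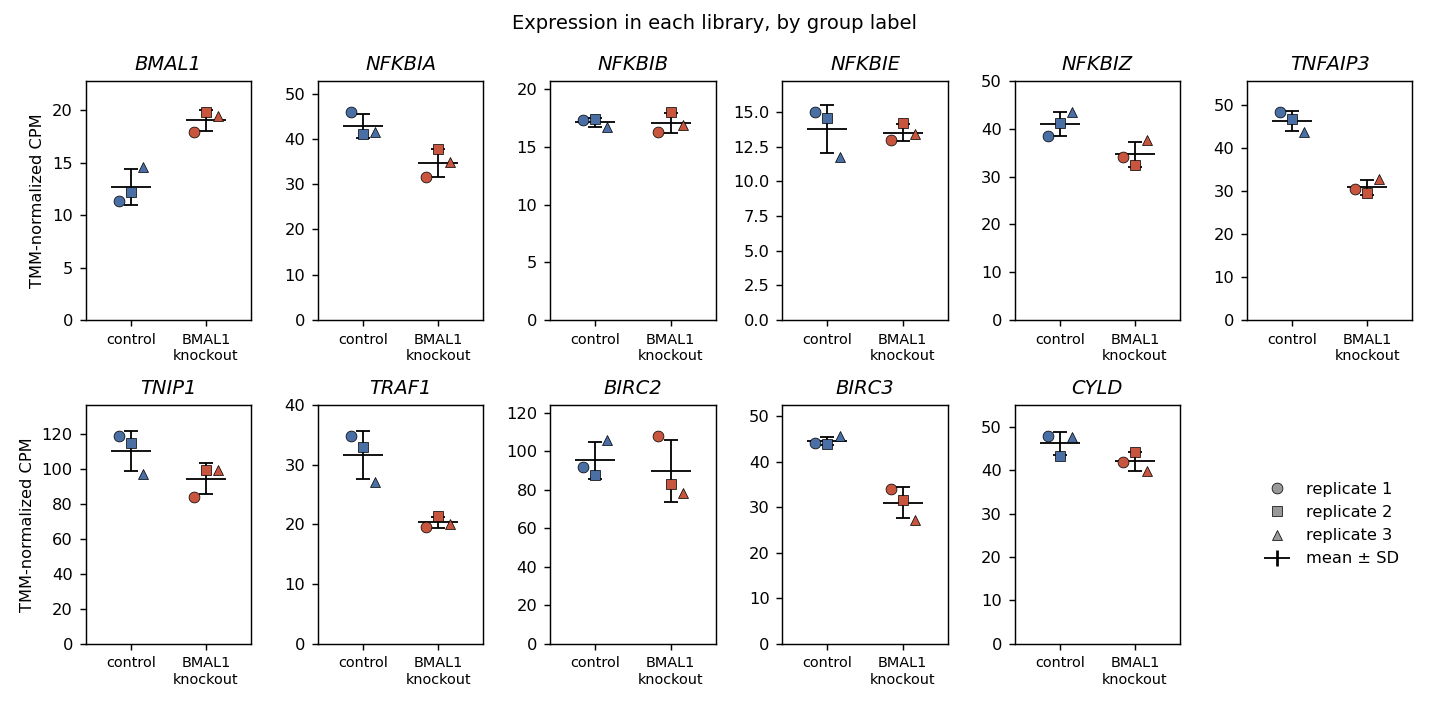
TMM-normalized CPM of BMAL1 and the 10 genes in each library, by group label, with the mean and SD of 3 libraries a group and a marker shape for each replicate number; every axis starts at 0. The groups are apart for BMAL1, NFKBIA, NFKBIZ, TNFAIP3, TRAF1 and BIRC3, and overlap for the others.

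The IκB proteins bind NF-κB dimers directly. NFKBIA (ENSG00000100906.12, chr14:35401079-35404749, reverse strand) encodes IκBα, the inhibitor that NF-κB quickly resupplies. It was measured at 45.9, 41.0 and 41.6 CPM in control libraries and at 31.5, 37.7 and 35.0 CPM in knockout-labelled libraries. Every knockout-labelled library lies below every control library, and knockout replicate 2 comes closest to them. The means were 42.8 ± 2.66 and 34.7 ± 3.15 CPM (SD, n = 3 each; two-sided exact permutation p = 0.1, the smallest that 3 against 3 can give). The log2 fold change of -0.30 (standard error 0.0941) did not pass the test across all loci (edgeR adjusted p = 0.120). With the trend of counts over exon GC content taken out of each library, an alternative chosen after the data were seen, it was -0.32 with an adjusted p of 0.0188, and the adjusted p ranged from 0.0188 to 0.381 over the 15 alternatives.

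NFKBIZ (ENSG00000144802.11, chr3:101827991-101861022) encodes the nuclear protein IκBζ, which acts on a subset of NF-κB targets as a coactivator. It was measured at 38.5, 41.2 and 43.5 CPM in control libraries and at 34.1, 32.4 and 37.6 CPM in knockout-labelled libraries. The groups do not overlap, though knockout replicate 3 lies just under control replicate 1. The log2 fold change was -0.24 (standard error 0.0911, edgeR adjusted p = 0.202), which did not pass. NFKBIZ shares 194 exon bases with NXPE3 on the same strand, a gene that is also in the table. The annotation and the strand used for counting are not stated, so how reads in overlapping genes were assigned is uncertain.

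The other IκB genes lay close to equal in both groups. NFKBIB (ENSG00000104825.17, chr19:38899700-38908893), which encodes IκBβ, averaged 17.1 ± 0.380 CPM in control and 17.1 ± 0.839 CPM in knockout-labelled libraries (SD, n = 3 each). Its log2 fold change was -0.01, with a 95% interval from -0.19 to 0.18 (edgeR adjusted p = 0.980). It shares 40 exon bases with SIRT2 on the opposite strand. NFKBIE (ENSG00000146232.17, chr6:44258166-44265788, reverse strand), which encodes IκBε, averaged 13.8 ± 1.77 and 13.5 ± 0.638 CPM (SD, n = 3 each), and its log2 fold change was -0.03 (standard error 0.116, edgeR adjusted p = 0.926). Without control replicate 3, the lowest control library for NFKBIE, the log2 fold change was -0.13. The ranges of both genes overlap between groups. The sign of NFKBIB turned with library size scaling, with thinning to the smallest total and without control replicate 2 or knockout replicate 1, and that of NFKBIE without control replicate 1 or 2.

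Ubiquitin chains carry the signal from the receptor to the kinase complex, and TNFAIP3, TNIP1 and CYLD act on them. TNFAIP3 (ENSG00000118503.18, chr6:137867214-137883314) encodes A20, the ubiquitin-editing enzyme whose loss leaves NF-κB signalling unchecked. It was measured at 48.4, 46.8 and 43.8 CPM in control libraries and at 30.5, 29.5 and 32.9 CPM in knockout-labelled libraries. The gap between the groups is wider than the spread within either of them. TNFAIP3 fell from 46.3 ± 2.36 to 31.0 ± 1.73 CPM (SD, n = 3 each), 33.0% lower, with all 3 knockout-labelled libraries below all control libraries. Its log2 fold change was -0.58 (standard error 0.0858, edgeR adjusted p = 0.00547), and its adjusted p was under 0.05 in all 15 alternatives. WAKMAR2, which shares 95 exon bases with it on the opposite strand, is not in the table.

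TNIP1 (ENSG00000145901.16, chr5:151029945-151093577, reverse strand) encodes ABIN1, a ubiquitin-binding partner of A20. Its levels were 119, 115 and 97.2 CPM in control libraries and 84.3, 99.5 and 99.5 CPM in knockout-labelled libraries. Control replicate 3 lies among the knockout-labelled libraries, so the groups overlap. The log2 fold change was -0.23 (standard error 0.0977, edgeR adjusted p = 0.268). It was -0.15 without knockout replicate 1 (adjusted p = 0.350), and -0.24 with an adjusted p of 0.0220 when the GC trend was removed. Over the 15 alternatives the adjusted p of TNIP1 ranged from 0.0220 to 0.614. CYLD (ENSG00000083799.18, chr16:50742050-50801935), a deubiquitinase that trims linear and K63-linked chains, averaged 46.2 ± 2.61 and 42.0 ± 2.27 CPM (SD, n = 3 each). Its ranges overlap, and its log2 fold change of -0.14 (standard error 0.0849) did not pass (edgeR adjusted p = 0.445).

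TRAF1, BIRC2 and BIRC3 sit together in a complex at TNF receptors, where the ubiquitin ligases cIAP1 and cIAP2, encoded by BIRC2 and BIRC3, restrain cell death. TRAF1 (ENSG00000056558.11, chr9:120902393-120929173, reverse strand) encodes an adaptor that acts together with TRAF2, which binds these ligases. It was measured at 34.8, 33.0 and 27.0 CPM in control libraries and at 19.6, 21.4 and 20.1 CPM in knockout-labelled libraries. The knockout-labelled libraries are close together and all lie below control replicate 3, the lowest of the controls. TRAF1 fell from 31.6 ± 4.08 to 20.4 ± 0.935 CPM (SD, n = 3 each), 35.6% lower. The log2 fold change was -0.64 (standard error 0.107, edgeR adjusted p = 0.0112). The call was lost without control replicate 1 (adjusted p = 0.0553) and without control replicate 2 (adjusted p = 0.0695), and the adjusted p ranged from 2.09e-05 to 0.0695 over the 15 alternatives.

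BIRC3 (ENSG00000023445.17, chr11:102317484-102339403) is a classic NF-κB target. Its level was 44.1, 44 and 45.7 CPM in control libraries and 34.0, 31.6 and 27.3 CPM in knockout-labelled libraries. The control libraries are nearly equal, and all 3 knockout-labelled libraries lie below them. BIRC3 fell from 44.6 ± 0.987 to 31.0 ± 3.40 CPM (SD, n = 3 each), 30.5% lower, and its log2 fold change was -0.53 (standard error 0.0957, edgeR adjusted p = 0.0163). The call was lost in 4 of the 6 fits that each left a library out, those without control replicate 1 (adjusted p = 0.0556), control replicate 2 (0.0800), control replicate 3 (0.0820) and knockout replicate 2 (0.050). Over the 15 alternatives its adjusted p ranged from 0.000145 to 0.0820. A noncoding gene of the opposite strand, ENSG00000288528, shares 126 exon bases with BIRC3 and is not in the table.

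BIRC2 (ENSG00000110330.10, chr11:102347211-102378670), the neighbour and close relative of BIRC3, is expressed in most cells without stimulation. Its levels were 91.9, 87.9 and 106 CPM in control libraries and 108, 82.8 and 78.5 CPM in knockout-labelled libraries. Knockout replicate 1 is the highest of all 6 and the other knockout-labelled libraries are the lowest, so the groups overlap. The log2 fold change was -0.08, with a 95% interval from -0.32 to 0.15 (edgeR adjusted p = 0.788). It was -0.24 without knockout replicate 1 (adjusted p = 0.138) and turned to 0.01 without knockout replicate 3 and to 0.00 without control replicate 3.

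Ratios within a library do not depend on how libraries are scaled. The log2 ratio of BIRC3 to BIRC2 in CPM was -1.06, -1.0 and -1.21 in control libraries and -1.67, -1.39 and -1.52 in knockout-labelled libraries. All 3 knockout-labelled ratios are lower than the control ratios. Their means, -1.53 ± 0.142 and -1.09 ± 0.107 (SD, n = 3 each), differ by -0.44 (two-sided exact permutation p = 0.1). RELA encodes p65, the subunit that IκBα holds in the cytoplasm. The log2 ratio of NFKBIA to RELA was -1.71, -1.99 and -1.77 in control libraries and -1.98, -1.90 and -2.05 in knockout-labelled libraries. These ratios overlap, with control replicate 2 among the lowest, and their means differ by -0.15 (two-sided exact permutation p = 0.3). The difference was -0.24 without control replicate 2 and -0.10 without control replicate 1.

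Levels per kilobase were taken over all exon bases of a gene, merged over its GENCODE transcripts. This length, 3394 bases for NFKBIA, can exceed that of the RNA present, so the order between genes depends on the annotation. By this measure BIRC2 was the highest of the 10 genes in both groups. It had 21.1 ± 2.06 CPM per kb in control and 19.9 ± 3.58 CPM per kb in knockout-labelled libraries (SD, n = 3 each). TNIP1 followed at 19.1 ± 2 and 16.3 ± 1.51 CPM per kb (SD, n = 3 each), and its SD ranges overlap those of BIRC2. NFKBIA came after it at 12.6 and 10.2 CPM per kb. In control libraries, NFKBIB, TNFAIP3, TRAF1 and NFKBIZ come next, between 7.38 and 6.96 CPM per kb, and neighbours in that order differ by less than their spread. BIRC3 had 5.96 CPM per kb, NFKBIE 5.35 and CYLD 3.57, the lowest level. In knockout-labelled libraries the levels of TNFAIP3 at 4.81, TRAF1 at 4.55 and BIRC3 at 4.14 CPM per kb stand in places 7, 8 and 9 of the order, after places 5, 6 and 8 in control libraries.

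Genes beside each other on a chromosome can shift together, so each of the 10 was set beside the 40 nearest tested genes with a GENCODE name. Around TNFAIP3 the median log2 fold change was -0.11, with 32 of 40 neighbours below 0 and none as low as TNFAIP3, which lay -0.47 from that median. By edgeR, 0 of these neighbours passed as lower and 1 as higher. TRAF1 lay -0.68 from a neighbour median of 0.05, with 2 of 40 neighbours lower than TRAF1, and edgeR called 2 of the 40 lower and 1 higher. BIRC3 lay -0.59 from a neighbour median of 0.07, with 1 of 40 lower than BIRC3, and 0 of the 40 were called in either direction. The neighbours of BIRC2 are largely those of BIRC3, and their median was 0.05. For NFKBIA the neighbour median was -0.01 and 1 of 40 lay lower than NFKBIA.

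**Figure D3:**
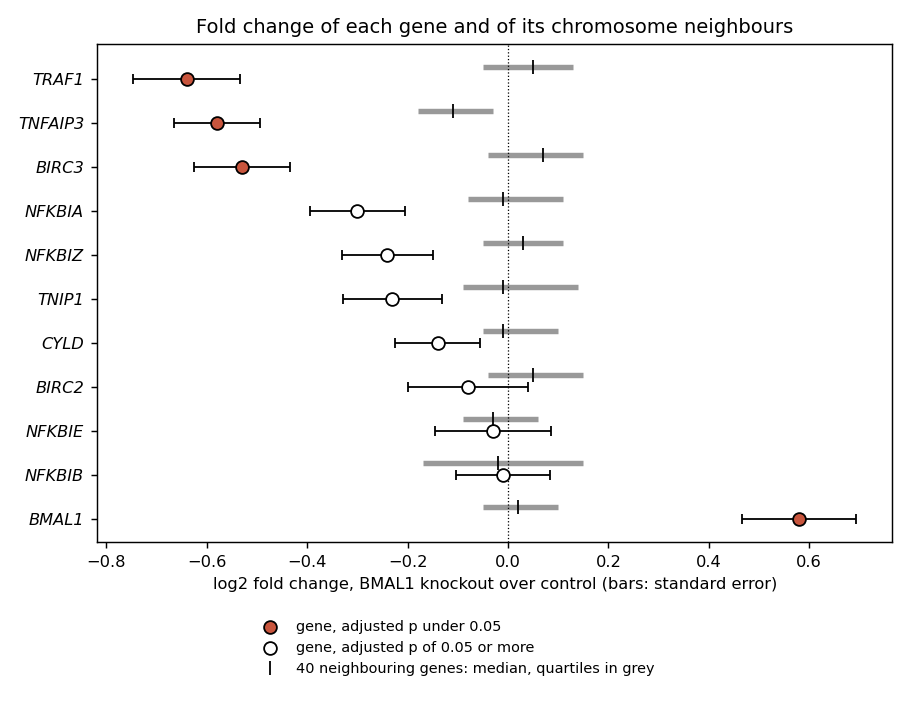
Log2 fold change of BMAL1 and the 10 genes, knockout-labelled over control libraries, with its standard error; filled points have an adjusted p under 0.05, and the grey bar gives the quartiles of the 40 neighbouring genes with their median as a tick. All of the 10 except NFKBIB and NFKBIE lie left of the bars of their neighbours, TRAF1, TNFAIP3 and BIRC3 farthest, while NFKBIB, NFKBIE and BIRC2 lie near 0 and change sign in some alternatives.

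The NF-κB subunits are the factors that these inhibitors restrain. Of 5 subunits tested by edgeR, 0 passed as lower and 0 as higher, with 1 lower and 1 higher by unadjusted p (under 0.05) and 0 calls by DESeq2 or limma-voom. Over all loci, 1.36% passed as lower and 1.01% as higher, and 7.76% and 9.10% by unadjusted p, so 0 of 5 is near the share of any loci. The subunits' median log2 fold change was 0.09, beside 0.01 for all loci. REL, the subunit c-Rel, had a mean of 25.1 CPM in control and 29.5 CPM in knockout-labelled libraries (log2 fold change 0.23, edgeR adjusted p = 0.229). NFKB1, the precursor of p50, averaged 80.1 and 70.3 CPM (log2 fold change -0.19, edgeR adjusted p = 0.251). RELA averaged 152 and 137 CPM (log2 fold change -0.15, edgeR adjusted p = 0.396).

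The receptor complex and its kinases, which turn a TNF signal into the loss of IκB, also had 0 calls by edgeR in either direction among 18 genes. By unadjusted p (under 0.05), 1 was lower and 2 were higher, and DESeq2 and limma-voom called 0. These counts are near the shares over all loci, 1.36% and 1.01% adjusted and 7.76% and 9.10% unadjusted. The median log2 fold change was -0.05. TNFRSF1A, the TNF receptor most cells carry, had a log2 fold change of -0.25 (edgeR adjusted p = 0.165). For TRAF5, an adaptor, it was 0.35 (edgeR adjusted p = 0.109), and for CHUK, which encodes the kinase IKKα, 0.22 (edgeR adjusted p = 0.190). With the GC trend removed, TNFRSF1A was called lower at -0.26 (adjusted p = 0.0168, and 0.0168 to 0.451 over its 15 alternatives), and CHUK had 0.14.

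Other inhibitors and partners of the 10 genes had 0 calls by edgeR among the 12 tested of 13, TNIP3 being too low to test. By unadjusted p (under 0.05), 2 were lower and 0 higher, and DESeq2 and limma-voom called 0. Over all loci the unadjusted shares are 7.76% lower and 9.10% higher, and with 1.36% and 1.01% adjusted, 0 of 12 is near the background. The median log2 fold change was -0.08. ITCH, a ubiquitin ligase that works with A20 and the highest of these in CPM without correction for length, had a log2 fold change of -0.06 (edgeR adjusted p = 0.773), which turned positive without control replicate 3. The values were -0.23 for PDLIM2 (edgeR adjusted p = 0.197) and -0.25 for TNIP2, a relative of TNIP1 (edgeR adjusted p = 0.239). Both were called lower with the GC trend removed, PDLIM2 at an adjusted p of 0.0450 and TNIP2 at 0.0375. Over the 15 alternatives the adjusted p ranged from 0.0450 to 0.504 for PDLIM2 and from 0.0375 to 0.615 for TNIP2.

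Other survival genes had 0 calls by edgeR among the 9 tested of 11, BIRC7 and BCL2A1 being too low to test. By unadjusted p (under 0.05), 2 were lower and 0 higher, and DESeq2 and limma-voom called 0. All loci gave 7.76% lower and 9.10% higher unadjusted, and 1.36% and 1.01% adjusted, which 0 of 9 is near. The median log2 fold change was -0.13. SOD2, the mitochondrial superoxide dismutase, had a log2 fold change of -0.18 (edgeR adjusted p = 0.217), and IER3, an early response gene, -0.19 (edgeR adjusted p = 0.295). With the GC trend removed, SOD2 was called lower at -0.25 (adjusted p = 0.0224, and 0.0224 to 0.421 over its 15 alternatives). BIRC6, which had the highest CPM of the list before any correction for length, had 0.04 (edgeR adjusted p = 0.843), which turned to -0.01 when the GC trend was removed.

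Among secreted and surface targets of NF-κB, 2 of the 16 tested were lower and 0 higher by edgeR, with 6 lower and 1 higher by unadjusted p (under 0.05). The shares over all loci are 1.36% lower and 1.01% higher, and 7.76% and 9.10% unadjusted. This list too was chosen with earlier results of these data known. IL1A, IL1B, LTB and VCAM1, also listed, were too low to test. The list's median log2 fold change was -0.18, beside 0.01 for all loci. PTX3, a secreted pattern recognition protein, was measured at 25.3, 21.2 and 23.6 CPM in control libraries and at 14, 11.8 and 13.5 CPM in knockout-labelled libraries. All 3 knockout-labelled libraries lie far below the controls. PTX3 fell, its log2 fold change being -0.83 (standard error 0.108, edgeR adjusted p = 0.00305), a call made in all 15 alternatives.

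CCL5, a chemokine that draws in T cells, was measured at 53.9, 49.5 and 44.6 CPM in control libraries and at 35.8, 39.5 and 34.4 CPM in knockout-labelled libraries. The groups do not overlap, and control replicate 3 is the nearest to the knockout-labelled libraries. CCL5 fell, its log2 fold change being -0.43 (standard error 0.0956, edgeR adjusted p = 0.0393). Its adjusted p was under 0.05 in 8 of 15 alternatives. It was 0.166 without control replicate 1, 0.159 without control replicate 2 and 0.0536 without control replicate 3. Without knockout replicate 2 it was 0.0617, and without knockout replicate 3 it was 0.106. It was 0.0575 with library size scaling. The log2 fold change of CCL5 ran from -0.50 to -0.37 over the 15 alternatives. CXCL10, a chemokine that interferons also induce, lay lower without overlap between groups at a log2 fold change of -0.73 (edgeR adjusted p = 0.115), and passed only with the GC trend removed, at -0.80 (adjusted p = 0.0332, and 0.0332 to 0.291 over its 15 alternatives). CXCL1, which draws in neutrophils, also lay lower without overlap, at -0.48 (edgeR adjusted p = 0.157). LIF, which had the highest CPM of the list without correction for length, had a log2 fold change of -0.11 (edgeR adjusted p = 0.539).

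By their labels all 6 libraries are of the HTori-3.1 line, so marker levels here describe RNA of a cell line and not of tissue. The summed level of 5 immune markers was 19, 19.3 and 16.9 CPM in control libraries and 13.7, 11.7 and 12.2 CPM in knockout-labelled libraries. These sums are lower in the knockout-labelled libraries and are nearly all CD68 and PTPRC, as LYZ averaged 0.111 and 0.0721 CPM. CD68 had the highest CPM, with means of 12.0 and 10.1 CPM, and PTPRC averaged 6.33 and 2.38 CPM. CD3E, which marks T cells, and MS4A1, which marks B cells, had 0 counts in all 6 libraries. Epithelial markers summed to 2983, 3012 and 2846 CPM in control libraries and 2512, 2537 and 2607 CPM in knockout-labelled libraries, most of it from KRT8, KRT18 and KRT7. The lower sum comes from KRT8 and from KRT18, which averaged 843 and 607 CPM. The other 4 means were higher in knockout-labelled libraries, among them KRT7 at 703 and 768 CPM. For the fibroblast markers the sums were 920, 916 and 775 CPM in control and 710, 955 and 1006 CPM in knockout-labelled libraries. They overlap between groups, as do those of the thyroid follicular and endothelial markers. The part of any marker list in the results was not tested.

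**Figure D4:**
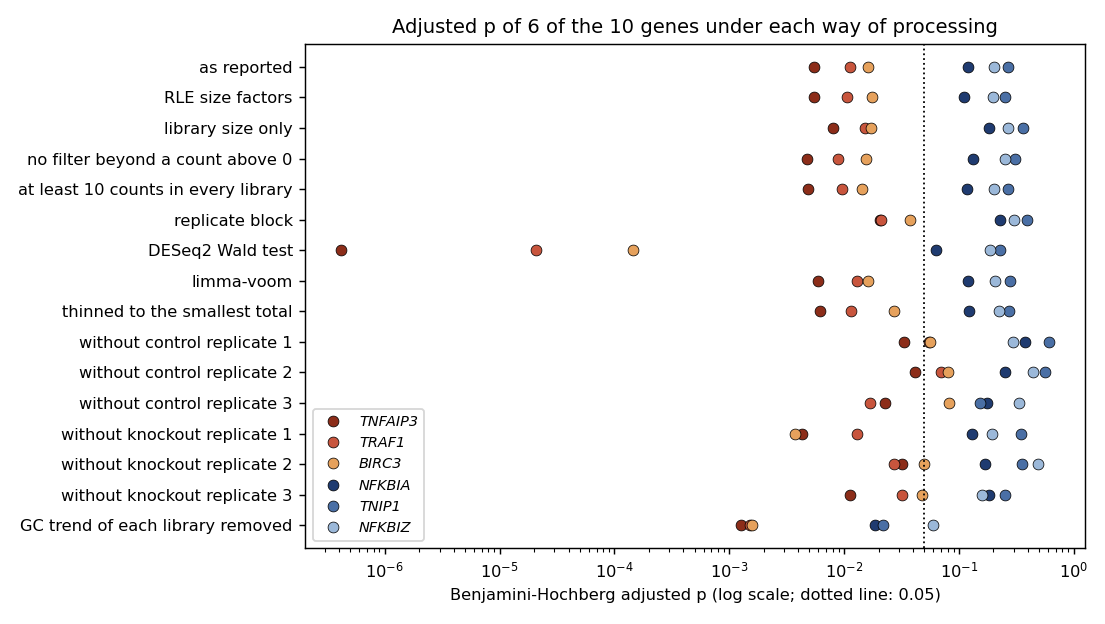
Adjusted p of TNFAIP3, TRAF1, BIRC3, NFKBIA, TNIP1 and NFKBIZ under each way of processing, on a logarithmic axis with the threshold of 0.05 marked. TNFAIP3 stays past the threshold in all 15 alternatives, whereas TRAF1 crosses it in 2 and BIRC3 in 4 of the fits that each left a library out.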

How the data were processed

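Per the labels, RNA was sequenced in 6 libraries of HTori-3.1. The authors deposited the number of reads per gene as whole counts on hg38, not normalized. Their notes name fastp 0.20.1 and HISAT2 2.0.4 but no annotation or strand. Names were matched to GENCODE v44 for 20018 of 22354 loci. With edgeR 4.0.16 in R 4.3.3, loci passing filterByExpr were scaled with TMM factors and tested with a robust two-sided quasi-likelihood fit, with Benjamini-Hochberg adjustment over 14860 loci. Promoters are from RefSeq.

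The members and lists were chosen with earlier results of these data known. Genes named are the 10 members, BMAL1, RELA, and from each list those with an adjusted p under 0.05, the highest in mean CPM and up to 2 more with the smallest p. Cell type markers are named besides these, and 4 BMAL1 targets were picked after their values were seen. Alternatives were other size factors, library size only, other filters, a replicate block, DESeq2 1.42.0, limma-voom (limma 3.58.1), thinning to the smallest total, leaving out each library and, chosen after seeing the data, taking each library's trend over exon GC content out, known for 91.4% of loci tested. The edgeR step was also run on simulated data, and no result given here rests on that run.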

Additional observations from a re-analysis of the deposited data

How the results depend on the processing

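With the GC trend removed, an alternative chosen after seeing the data, 5 of the 10 genes were lower, not 3: NFKBIA at -0.32 and TNIP1 at -0.24 were added, and over all loci 866 were lower and 404 higher, not 202 and 150. BIRC6 turned to -0.01 there. NFKBIB turned to 0.02 with library size scaling and to 0.02 with thinning to the smallest total. The cause was not tested.

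Leaving out a library at a time, the fold change (log2) lay between 0.50 and 0.69 for BMAL1, -0.73 and -0.56 for TRAF1, and -0.60 and -0.44 for BIRC3, each losing its call in some fits with fewer libraries. It lay between -0.04 and 0.02 for NFKBIB, -0.13 and 0.03 for NFKBIE, -0.24 and 0.01 for BIRC2, and -0.10 and 0.02 for ITCH. Between 1 and 3 of the 10 genes were lower. The calls over all loci ranged from 65 lower and 39 higher without control replicate 2 to 360 and 323 without knockout replicate 1. DESeq2 called 379 lower and 256 higher.

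With replicates of the same number as a block, 3 of the 10 genes were lower, NFKBIA had -0.31 (adjusted p = 0.230), CCL5 lost its call (0.0697), and 119 loci were lower and 97 higher. The numbers do not pair the libraries: same-numbered libraries correlated, as deviations from their group means across loci, at -0.19, 0.017 and -0.072, and no library correlated best with its own number in the other group.

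In the pathway lists, removing the GC trend added TNFRSF1A, PDLIM2, TNIP2, SOD2 and CXCL10 to the genes called lower. The 2 secreted and surface targets called lower became 1 in 7 of 15 alternatives: library size scaling, the block, and the fits without control replicate 1, 2 or 3 or knockout replicate 2 or 3.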
